A study of Mus musculus with 6 samples.

Results

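The 6 St8sia genes, which encode the alpha-2,8-sialyltransferases, and Ncam1, the main protein carrier of polysialic acid, were followed in RNA from mouse retinal cells that were sorted for Thy1 and labelled as retinal ganglion cells, with and without added Sox11. The genes were taken by name from the deposited table, having been selected on the difference in normalized values between the groups described below, and all 7 were in it, as 10 transcript rows of 26691 and 7 genes of 15450. Both groups were mice of about 3 to 4 weeks at the start whose eyes were injected with an adeno-associated virus (AAV) for 2 weeks and whose optic nerve was crushed 3 days before sacrifice. The AAV-Control group received a virus labelled as carrying PLAP, and the AAV-Sox11 group one carrying Sox11, a transcription factor of immature neurons. Live cells of dissociated retinas were sorted for the surface protein Thy1, and each of the 3 libraries per group (A, B and C) pooled 3 retinas from 3 animals. No uninjured eye is in either group, so every difference below is between injured retinas. For the vectors, neither the promoter nor the share of cells reached was given in the sources used here.

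Polysialic acid is a long chain of sialic acid residues in alpha-2,8 linkage that is built almost entirely on the neural cell adhesion molecule NCAM, the product of Ncam1. ST8SIA2 and ST8SIA4 are the Golgi enzymes that polymerize it, while ST8SIA1 and ST8SIA5 add sialic acid to gangliosides, ST8SIA3 makes short chains and ST8SIA6 acts mainly on O-glycans. The chain is bulky, hydrated and negatively charged, lowers adhesion between cell membranes, and is abundant on growing axons of the developing nervous system, including the visual pathway. RNA was measured here, not enzyme activity or the glycan.

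Values are the authors' normalized values per library, summed over a gene's transcript rows, in libraries whose totals ran from 10695330 to 11657271. Read depth is unknown, because the whole-number columns deposited beside them are not raw counts: after each row's mean was taken out, 1 direction of difference among the 6 libraries held almost no spread (SD 9.48e-05 natural log units over 1177 rows of mean value above 2000, against 0.0872 for the next smallest). That direction belonged mostly to AAV-Sox11 B (57.7% of its squared weight), so standard errors and p-values leave out part of the spread between the pools. The libraries' labels were checked on Sox11 itself, at 131, 111 and 100.3 in AAV-Control A, B and C and 179, 234 and 284 in AAV-Sox11 A, B and C. The groups did not overlap for Sox11, with means of 114 ± 15.6 and 232 ± 52.1 (SD, n = 3 per group) and a ratio of 2.04.

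St8sia4 encodes the polysialyltransferase that predominates in the mature nervous system, and it had the largest difference of the 7 genes. Its value was 93.2, 154 and 131 in AAV-Control A, B and C, against 309, 377 and 402 in AAV-Sox11 A, B and C. Every Sox11 library lay above every control, and the ranges were far apart. The means were 126 ± 30.7 and 363 ± 48.4 (SD, n = 3 each), a ratio of 2.87, and the fitted log2 fold change was 1.54 ± 0.20 (standard error). Libraries prepared on the same day gave ratios of 3.31, 2.45 and 3.07 for A, B and C. The gene ranked 26th of 15450 by log2 fold change and lay at the 58.0th percentile of mean value, so it was a mid-abundance transcript. These genes were chosen with this comparison known, so their differences are given as a description and no p-value is attached.

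St8sia2 encodes the polysialyltransferase that predominates in the embryonic brain. It measured 345, 185 and 172 in the controls and 533, 563 and 518 with Sox11. The Sox11 libraries were close together, whereas AAV-Control A stood well above the other controls without reaching the Sox11 range. The means were 234 ± 96.2 and 538 ± 22.9 (SD, n = 3), a ratio of 2.30, with a fitted log2 fold change of 1.27 ± 0.25. The same-day ratios were 1.55 for A, 3.04 for B and 3.02 for C, and without AAV-Control A the fitted log2 value was 1.59. In bulk RNA of sorted cells, more cells that carry a transcript and more transcript per cell cannot be told apart.

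The 250 bases before the RefSeq starts (GRCm38.p6) of the polysialyltransferase genes are shown because these genes were higher together in the Sox11 libraries, and that of St8sia1 because its level differed little. They are printed 5′ to 3′ on the gene's strand, with each match in capitals to a CCAAT box (CCAAT) or a GC box (GGGCGG) on either strand.
St8sia4, chr1:95667595-95667844, minus strand: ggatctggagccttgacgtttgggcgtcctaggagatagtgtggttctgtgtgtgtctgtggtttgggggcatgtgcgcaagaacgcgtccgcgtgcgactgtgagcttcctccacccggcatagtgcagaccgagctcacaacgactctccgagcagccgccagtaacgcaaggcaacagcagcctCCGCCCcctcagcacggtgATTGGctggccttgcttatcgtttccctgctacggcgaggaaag
St8sia2, chr7:74013683-74013932, minus strand: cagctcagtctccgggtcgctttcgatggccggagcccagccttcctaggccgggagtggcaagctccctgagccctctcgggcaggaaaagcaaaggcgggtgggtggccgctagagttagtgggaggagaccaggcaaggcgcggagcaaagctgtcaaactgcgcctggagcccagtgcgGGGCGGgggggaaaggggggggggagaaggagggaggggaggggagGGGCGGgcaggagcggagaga
St8sia1, chr6:142964453-142964702, minus strand: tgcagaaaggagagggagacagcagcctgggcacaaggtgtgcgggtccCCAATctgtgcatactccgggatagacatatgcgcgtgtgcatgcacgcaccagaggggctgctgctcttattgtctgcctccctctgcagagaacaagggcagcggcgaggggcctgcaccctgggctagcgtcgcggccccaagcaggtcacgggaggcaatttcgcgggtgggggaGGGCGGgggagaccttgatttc

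The St8sia4 window held both boxes on the strand opposite the gene, with their outermost bases 44 bases (CCAAT box) and 63 bases (GC box) before the start. The St8sia2 window held GC boxes at 67 and 21 bases and no CCAAT box, and the St8sia1 window a CCAAT box at 201 and a GC box at 22 bases. All 3 windows were GC-rich, at 60.4% for St8sia4, 68.8% for St8sia2 and 63.6% for St8sia1, against a median of 52.4% over all windows. Among 32851 mouse windows of this length, 33.8% held a CCAAT box and 32.7% a GC box. The Sox-type letters AACAAT and ACAAAG, searched on both strands, were in none of the 4 St8sia windows that were matched (St8sia1, St8sia2, St8sia4 and St8sia6), and in 9.42% and 16.5% of all windows. A letter match is not a binding site, and its absence here says only that these letters are not in these 250 bases. The St8sia6 window held none of the 4 motifs and is not printed, since it lies inside the gene's first GENCODE exon.

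On GRCm38 with GENCODE M21, St8sia4 spans positions 95587682 to 95667571 of chromosome 1 and St8sia2 positions 73939119 to 74013690 of chromosome 7, both on the minus strand. St8sia1 spans 142821545 to 142964452 of chromosome 6, St8sia6 13651021 to 13794064 of chromosome 2 and Ncam1 49502136 to 49798925 of chromosome 9, also on the minus strand. St8sia3 and St8sia5 lie on the plus strand of chromosome 18. All but St8sia4 overlap an annotated gene on the opposite strand (Gm38143 for St8sia2, Gm7457 for St8sia1, Gm37126 for St8sia6, Gm11149 for Ncam1, St8sia3os for St8sia3, and Gm7276 and Gm15957 for St8sia5). Whether the authors' counting used strand was not given in the sources used here, so reads of such partners may be included in their values. St8sia4 and St8sia2 each also overlap an annotated gene on their own strand (Gm37642 and Gm45003), whose reads could be included with any strand setting.

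**Figure D1:**
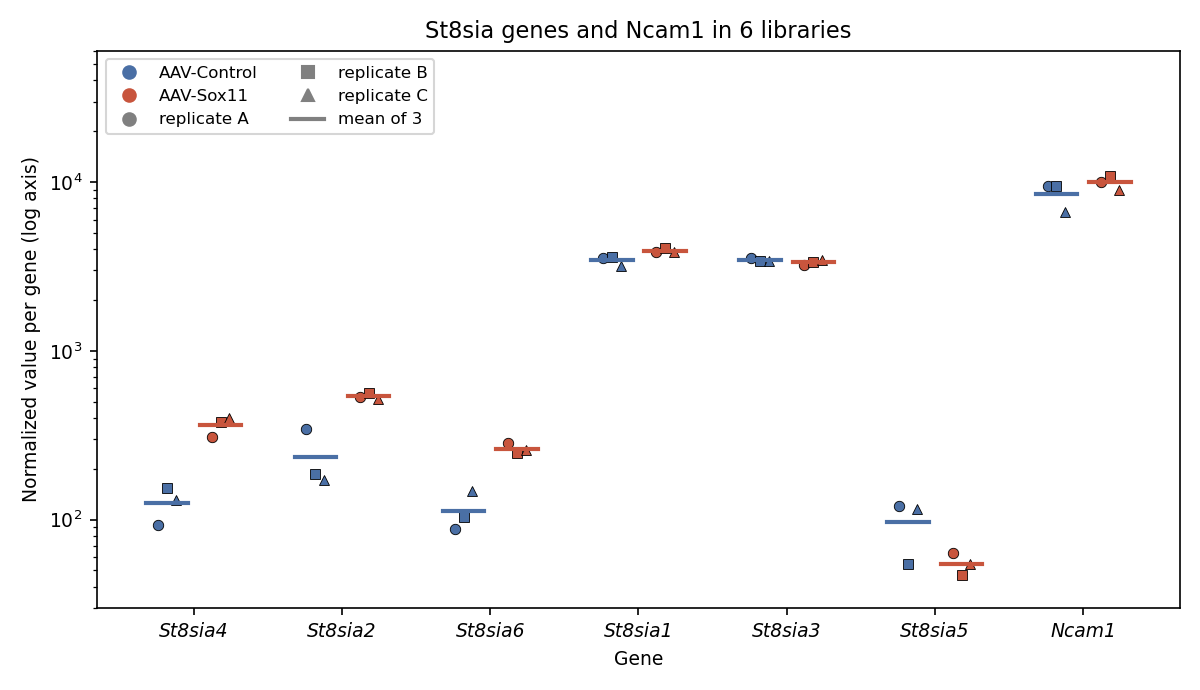
Normalized value per gene (log axis) of the 6 St8sia genes and Ncam1 in 3 AAV-Control and 3 AAV-Sox11 libraries; symbols mark replicates A, B and C and bars the mean of 3. The Sox11 libraries lie above all controls for St8sia4, St8sia2, St8sia6 and St8sia1, and the groups overlap for St8sia3, St8sia5 and Ncam1.

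St8sia6, whose enzyme forms disialic acid on O-glycans, differed between the groups by about as much as St8sia2. It measured 88.3, 103 and 148 in the controls and 283, 249 and 259 with Sox11. The Sox11 libraries again lay above all controls, with AAV-Control C the highest of the controls. The means were 113 ± 30.9 and 264 ± 17.1 (SD, n = 3), a ratio of 2.33 and a fitted log2 fold change of 1.25 ± 0.20. Its same-day ratios were 3.20, 2.42 and 1.76, the last being the lowest for this gene.

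The ganglioside and short-chain enzymes did not share this size of difference. St8sia1, the GD3 synthase, measured 3543, 3590 and 3183 in the controls and 3860, 4043 and 3846 with Sox11, without overlap but with a ratio of only 1.14 (log2 0.19 ± 0.08). St8sia3, whose enzyme makes short sialic acid chains in brain, measured 3528, 3391 and 3410 in the controls and 3247, 3349 and 3450 with Sox11 (log2 -0.04 ± 0.07). Its groups overlapped, and its 3 same-day ratios lay on both sides of 1. St8sia5, whose enzyme extends gangliosides, measured 120, 54.9 and 115 in the controls and 63.6, 46.7 and 54.3 with Sox11 (log2 -0.73 ± 0.32). It was lower with Sox11 in all 3 same-day pairs, yet AAV-Control B was as low as the Sox11 libraries, so the groups overlapped.

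St8sia3 and St8sia5 each had 2 transcript rows. The St8sia5 row of 412 codons (ENSMUST00000075290) was 35.9, 19.6 and 16.4 in the controls and 14.6, 12.5 and 9.05 with Sox11, without overlap, while the row of 376 codons (ENSMUST00000079618) was 84.5, 35.3 and 98.4 against 49.0, 34.3 and 45.2, with overlap. The lower value of St8sia5 was thus present in both rows, and the row of 376 codons made up 73.4% ± 11.1 of the gene in the controls and 77.9% ± 5.05 with Sox11 (SD, n = 3). The minor St8sia3 row, a retained-intron transcript of 745 bases with no coding exon (ENSMUST00000129518), was 26.2, 17.6 and 21.2 in the controls and 16.7, 13.5 and 12.1 with Sox11. It did not overlap between groups but held under 1% of the gene in every library, and the coding row (ENSMUST00000025477) followed the gene.

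Ncam1, the carrier, was among the most abundant genes, 107th of 15450 by mean value. It measured 9460, 9448 and 6677 in the controls and 10012, 10798 and 9031 with Sox11. The Sox11 library was higher in each same-day pair, at ratios of 1.06, 1.14 and 1.35, but AAV-Sox11 C lay below controls A and B. The means were 8528 ± 1603 and 9947 ± 885 (SD, n = 3), a ratio of 1.17, with a fitted log2 fold change of 0.24 ± 0.15. The difference between the group means was smaller than the SD among the controls, most of which came from AAV-Control C.

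Of 7 annotated Ncam1 transcripts the table held 2, both coding, which differ at their 3′ ends. The longer of these 2 (ENSMUST00000166811, called the long form here) has 18 coding exons and 849 codons. The short form (ENSMUST00000114476) has 16 coding exons and 725 codons, and 14 coding exons are identical between them. An annotated transcript of 20 coding exons and 1088 codons, with the same last coding exon as the long form, had no row. The last coding exon lies at 49505446 to 49505563 of chromosome 9 in the long form and at 49517509 to 49517582 in the short form. Alternative 3′ exons of Ncam1 are known to separate transmembrane forms of NCAM from a form held by a lipid anchor. The long form was 8967, 8979 and 6250 in the controls and 9495, 10290 and 8574 with Sox11 (log2 0.25 ± 0.15), and the short form was 493, 469 and 427 against 517, 508 and 457 (log2 0.09 ± 0.11). The long form held 94.5% ± 0.769 of the gene's value in the controls and 95.0% ± 0.241 with Sox11 (SD, n = 3). These shares overlapped between groups, so no shift between the rows was larger than the spread of the libraries.

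In the authors' deposited table the log2 fold changes of the same rows were 1.52 for St8sia4, 1.20 for St8sia2, 1.22 for St8sia6 and 0.19 for St8sia1. For Ncam1 the authors' deposited table gives 0.23 for the long form and 0.09 for the short form, and for St8sia5 -0.99 for the row of 412 codons and -0.76 for that of 376. They come from the same libraries and add no independent evidence.

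Across the 7 genes, 4 had all 3 Sox11 libraries above all 3 controls, 0 had them all below and 3 overlapped. Over all 15450 genes, 30.7% did not overlap, 16.2% being higher and 14.4% lower. At least 2-fold higher by the ratio of means were 3 of the 7, against 1.09% of all genes. The median log2 fold change of the 6 St8sia genes was 0.72 and that of all genes 0.03. Since this comparison was used to choose the genes, nothing is read from these counts.

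To compare levels between genes, the value of each gene's most abundant transcript row alone was divided by that row's length. In the controls the order by mean value per kilobase was Ncam1 (2612), St8sia1 (382), St8sia3 (351), St8sia2 (43.6), St8sia5 (36.6), St8sia4 (23.4) and St8sia6 (14.8). Over the controls the ranges of St8sia1 and St8sia3 overlapped, as did St8sia2 with St8sia5, St8sia5 with St8sia4 and St8sia4 with St8sia6. Within each control library, St8sia1 still lay above St8sia3 and St8sia4 above St8sia6. The order of the other overlapping neighbours varied between the control libraries. Genes further apart could still be separate: St8sia2 lay above St8sia4 and St8sia6 in all comparisons of control libraries, and St8sia6 was the lowest of the 7 in each control. With Sox11 the order was Ncam1 (3061), St8sia1 (436), St8sia3 (342), St8sia2 (100.2), St8sia4 (67.3), St8sia6 (34.6) and St8sia5 (21.5), and no neighbours overlapped. St8sia5 was thus the lowest of the 7 genes in each Sox11 library and at the fourth to sixth place in the controls. Lengths are GENCODE M21 lengths, since the annotation the authors used was not given, and the main Ncam1 row as annotated is shorter than some other transcripts of the gene, which raises its value per kilobase. For St8sia5 the main row has 1989 bases and the other measured row 5432. Its place in the controls, and that of St8sia6 as the lowest there, could differ with another choice of length. The place of St8sia5 could also differ with both of its rows counted, since the other row held 26.6% of the gene in the controls.

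**Figure D2:**
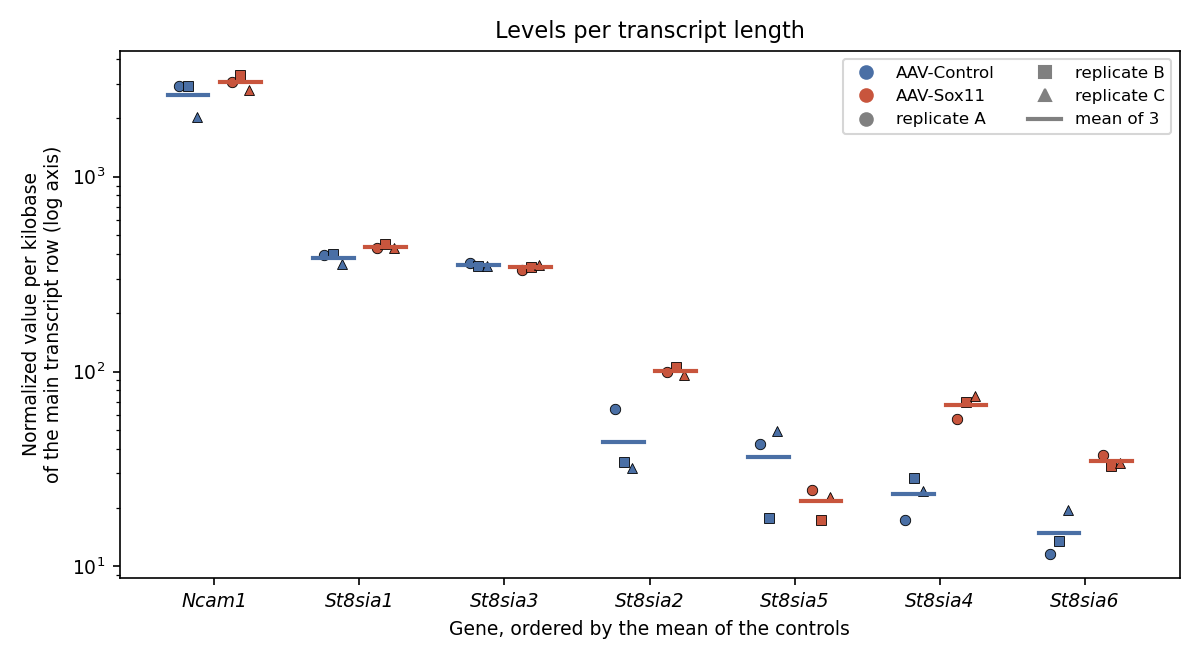
Normalized value per kilobase of each gene's main transcript row (log axis), in the order of the control means; symbols mark replicates and bars the mean of 3 libraries per group. Ncam1, St8sia1 and St8sia3 lie above the other 4 genes in all 6 libraries, and St8sia5 is lowest only in the Sox11 libraries.

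The polysialyltransferase pool, St8sia2 plus St8sia4 per kilobase, was 81.5, 63.1 and 56.3 in the controls and 156, 175 and 171 with Sox11. The groups were well apart, with means of 67.0 ± 13.0 and 167 ± 9.67 (SD, n = 3) and a ratio of 2.50. St8sia4 made up 21.2%, 45.3% and 43.2% of this sum in the controls and 36.6%, 40.0% and 43.6% with Sox11. Those shares overlapped, so the balance between the polysialyltransferases did not differ beyond the spread. Relative to the pool, Ncam1 per kilobase was 35.6, 46.1 and 35.9 times as high in the controls and 19.6, 19.1 and 16.2 times with Sox11. Carrier RNA exceeded enzyme RNA in every library, by less in each Sox11 library than in any control. St8sia2 and St8sia4 together made up 7.83% ± 1.21 of the summed main St8sia rows per kilobase in the controls and 16.7% ± 0.643 with Sox11 (SD, n = 3). St8sia1 and St8sia3 thus remained the bulk of the family. These sums, ratios and shares are built from the values by which the genes were chosen, so they add no evidence of their own.

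The labelled cell type was checked on marker genes. Of 10 retinal ganglion cell markers 9 were in the table, and their summed value was 10241, 9807 and 6916 in the controls and 8467, 10974 and 11373 with Sox11. This sum overlapped between groups, although 7 of the 9 genes had a positive log2 fold change (53.8% of all genes). Slc17a6 (1092, 1500 and 973 against 1589, 2518 and 3105), Pou4f2 (14.6, 34.3 and 16.4 against 45.9, 67.5 and 62.3) and Stmn2 were higher without overlap (16.2% of all genes). Nefl (means of 3605 and 2811, log2 -0.33) and Nefm (1270 and 938, log2 -0.39) went the other way with overlap, and Rbpms was level (log2 0.02). Nefl and Thy1 (2303 and 2908, with overlap) had the largest control means, so the sum leans on genes whose own groups overlapped. Markers of other retinal cells were abundant despite the Thy1 sort. The 7 rod markers summed to between 36805 and 58424 in the controls and between 22949 and 42014 with Sox11, the 7 amacrine markers to between 13094 and 16375 against 13022 and 15271, and 6 of 7 Müller glia markers (Rlbp1 is not among the rows) to between 32460 and 55646 against 43421 and 51397. All 3 sums overlapped, rods being lower with Sox11 in each same-day pair. Gad2 held most of the amacrine sum (means of 8573 and 10122). Of the other amacrine markers, Slc6a9 (380 and 195) and Pax6 (3372 and 2225) were lower without overlap (14.4% of all genes). Tfap2a (65.5 and 91.6) was higher without overlap, and the remaining amacrine markers overlapped. Dkk3 alone held most of the Müller glia sum (means of 37421 and 39201), so that sum says little of the other glial markers.

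Of the marker lists, the 2 described next were lower in every Sox11 library than in every control, as were 14.4% of all genes. The 7 bipolar cell markers measured of 8 (Pcp2 is not among the rows) summed to between 7452 and 10503 in the controls and 6234 and 7224 with Sox11. Prkca held most of this sum and differed little (means of 5844 and 5580, log2 -0.06). All 7 had a negative log2 fold change, but only Otx2 was lower without overlap. The 4 microglia and macrophage markers measured of 6 (Aif1 and Csf1r are not) summed to between 1006 and 1954 against 672 and 961, and 2 of the 4 were lower without overlap. The 5 cone markers had a lower ratio of means than either list, 0.47 (1375 ± 1038 and 647 ± 131, SD, n = 3). Their sum was lower in each same-day pair, but the groups overlapped. AAV-Control A, the control with the highest St8sia2 and the lowest St8sia4 and St8sia6 values, stood apart from AAV-Control B and C in some markers. Its cone markers summed to 2567 against 676 and 881, and the pericyte marker Rgs5 was at 15449 against 3265 and 2898. Without AAV-Control A the fitted log2 fold change fell from 1.54 to 1.34 for St8sia4 and from 1.25 to 1.09 for St8sia6. For St8sia2 it rose from 1.27 to 1.59. The part of cell make-up in the St8sia differences was not tested. Per 1000 of summed ganglion cell markers, St8sia4 was 9.10, 15.7 and 19.0 in the controls and 36.4, 34.3 and 35.4 with Sox11, a ratio of 2.43, and St8sia2 was 33.7, 18.9 and 24.8 against 62.9, 51.3 and 45.5, a ratio of 2.06. St8sia6 had a ratio of 1.95, and none of these genes overlapped on this scale. Slc17a6, which encodes the vesicular glutamate transporter of ganglion cells, was itself higher with Sox11, at a ratio of 2.02. Dividing by it therefore lowers the ratios, and no other marker was used alone. Per 1000 of Slc17a6, St8sia4 was 85.3, 103 and 135 against 194, 150 and 130, a ratio of 1.47 with overlap. St8sia2 and St8sia6 also overlapped, at 1.18 and 1.20.

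**Figure D3:**
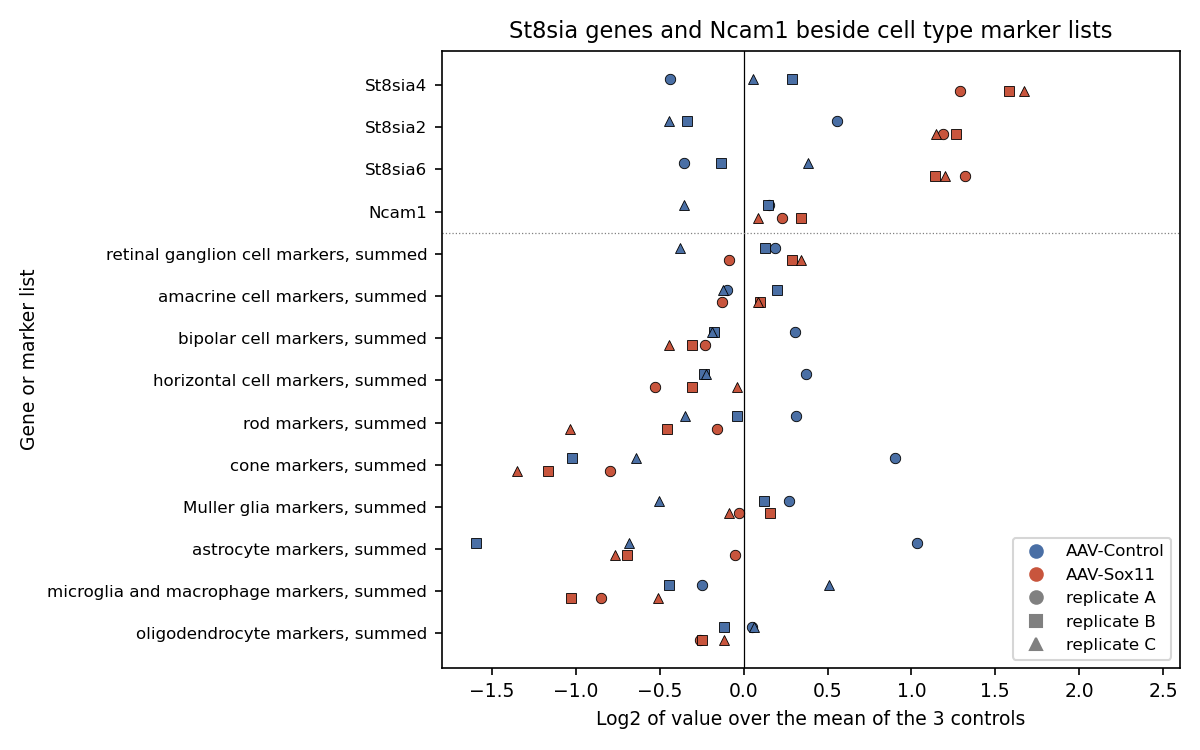
Log2 of each library's value over the mean of the 3 controls, for 4 of the genes (above the dotted line) and for summed marker lists of retinal cell types; colours are groups and symbols replicates. St8sia4, St8sia2 and St8sia6 in the Sox11 libraries lie more than 1 above the control mean, to the right of every marker list shown, while Ncam1 and the ganglion cell markers both stay within 0.4 of it.

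The surrounding pathway was read from 8 lists of 66 genes, of which 58 were in the table. Tested with limma over all 15450 genes at a Benjamini-Hochberg adjusted p under 0.05, 1 of the 58 rose, 2 fell and 55 did not pass, where 2.32% of all genes passed, 0.796% rising and 1.52% falling. Their median log2 fold change was 0.15 against 0.03 for all genes, and 37 of the 58 were positive against 53.8% of all genes. An unadjusted limma p under 0.05, given below for lists without a call, was reached by 24.3% of all genes. With the preparation day as a block, 4 rose and 3 fell, where 4.77% of all genes passed, 2.09% rising and 2.68% falling. The 3 calls depended on single libraries: without AAV-Sox11 A, B or C in turn 0 were called, there or among all genes (3120, 1942 and 2953 genes had an unadjusted limma p under 0.05), and without AAV-Control B there were 7.

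**Figure D4:**
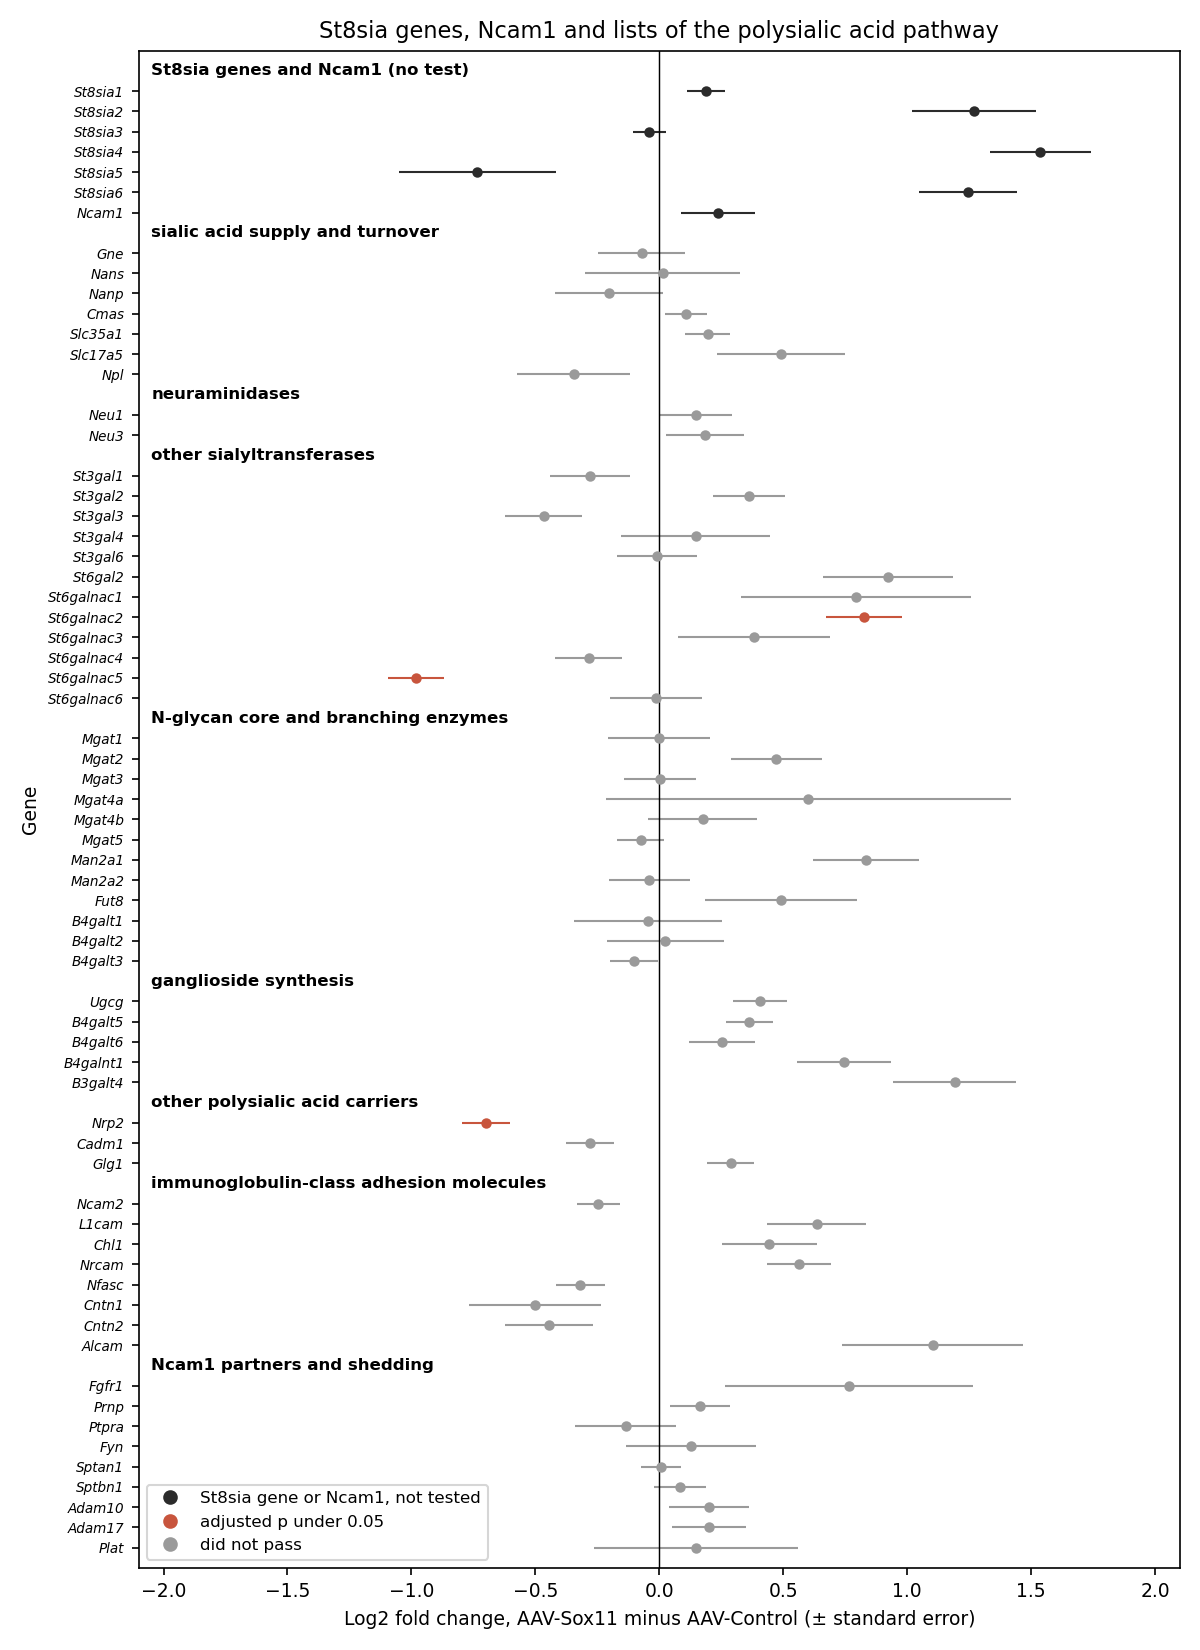
Log2 fold change, AAV-Sox11 minus AAV-Control, with its standard error, for the 7 St8sia and Ncam1 genes (black, not tested) and 58 genes in 8 lists (red where the limma adjusted p was under 0.05). St6galnac2 to the right of 0 and St6galnac5 and Nrp2 to the left passed the test.

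Other sialyltransferases, which add single sialic acids in alpha-2,3 or alpha-2,6 linkage, moved in both directions: of 12 measured, 1 rose, 1 fell and 10 did not pass (median log2 0.07). St6galnac5, which makes the alpha-series ganglioside GD1alpha, measured 750, 595 and 705 in the controls and 341, 329 and 363 with Sox11, and fell by 0.98 ± 0.11 on the log2 scale (limma adjusted p = 0.0153). St6galnac2, which sialylates O-glycans, rose from 155 ± 25.0 to 274 ± 23.4 (SD, n = 3; log2 0.83 ± 0.15, limma adjusted p = 0.0447), a call that was lost when any 1 of the 6 libraries was left out (0.0506 to 0.256). St6gal2, an alpha-2,6-sialyltransferase of brain, measured 910 ± 310 and 1661 ± 248 (log2 0.92 ± 0.26, limma adjusted p = 0.0941) and passed with the day as a block, at 0.0490 (0.0490 to 0.560 over the alternatives).

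Among other proteins known to carry polysialic acid, Nrp2, the receptor neuropilin-2, measured 368, 354 and 352 in the controls and 220, 219 and 221 with Sox11. It fell by 0.70 ± 0.10 on the log2 scale (limma adjusted p = 0.0201), with the Sox11 libraries almost equal. Cadm1, which encodes the synaptic adhesion molecule SynCAM 1, was at -0.28 ± 0.10 and Glg1, a Golgi glycoprotein, at 0.29 ± 0.09, and neither passed. The list is short, with 3 of 5 measured.

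In the supply of sialic acid 0 of 7 genes passed in limma, and 0 had an unadjusted p under 0.05 (median log2 0.01). Cmas, which activates sialic acid to its CMP form, measured 1646 ± 107 and 1773 ± 93.6 (log2 0.11 ± 0.08, limma adjusted p = 0.455), and the lysosomal exporter Slc17a5 was at 0.49 ± 0.26 (0.284). Of the neuraminidases, which remove sialic acid, the membrane enzyme Neu3 was at 0.18 ± 0.16 (0.503) and the lysosomal Neu1 at 0.15 ± 0.15. Of 12 genes that build the N-glycan to which polysialic acid is attached, 0 passed in limma and 2 had an unadjusted p under 0.05 (median log2 0.01). The Golgi mannosidase Man2a1 had the largest value there, 0.83 ± 0.21 (limma adjusted p = 0.0770, and 0.0458 with the day as a block, 0.0371 to 0.292 over the alternatives), and Man2a2 was at -0.04 ± 0.16.

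The substrates of St8sia1 and St8sia5 come from ganglioside synthesis, of whose 5 genes 0 passed in limma and 4 had an unadjusted p under 0.05 (24.3% of all genes), with all 5 log2 fold changes positive (53.8% of all genes) and a median of 0.41. B3galt4, a galactosyltransferase of complex gangliosides, measured 15.5, 13.7 and 13.5 in the controls and 41.7, 35.3 and 26.1 with Sox11, without overlap (log2 1.19 ± 0.25, limma adjusted p = 0.0545). Ugcg, which makes glucosylceramide, measured 5980 ± 783 and 7885 ± 449 (SD, n = 3; log2 0.41 ± 0.11, limma adjusted p = 0.0823, and 0.0454 without AAV-Control B, 0.0454 to 0.417 over the alternatives). B4galnt1, the GM2/GD2 synthase, passed with the day as a block, at 0.0407 (0.0229 to 0.329 over the alternatives), against 0.0752 without it.

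Of 8 adhesion molecules of the immunoglobulin class, 4 were positive, 0 passed in limma and 6 had an unadjusted p under 0.05 (24.3% of all genes), 3 of them higher and 3 lower (median log2 0.10). Ncam2, the paralogue of Ncam1 that is not polysialylated, measured 2524, 2320 and 2152 in the controls and 2024, 2001 and 1866 with Sox11, without overlap (log2 -0.25 ± 0.09, limma adjusted p = 0.140). Alcam, an adhesion molecule of growing axons, measured 464 ± 241 and 924 ± 211 (SD, n = 3; log2 1.10 ± 0.36, limma adjusted p = 0.127). Its log2 value was 1.49 without AAV-Control B, where it passed (limma adjusted p = 0.0417, 0.0417 to 0.727 over the alternatives), 0.71 without AAV-Control C and 0.30 with the sex index described below as a covariate. Cntn2, an axonal adhesion molecule, was lower in 3 of 3 same-day pairs with overlapping groups (log2 -0.44 ± 0.18, limma adjusted p = 0.180), and passed as lower with the day as a block, at 0.0458 (0.0458 to 0.607 over the alternatives). Of 9 partners and proteases of NCAM 0 passed in limma and 0 had an unadjusted p under 0.05, with Fgfr1, a receptor that binds NCAM, at 0.76 ± 0.50 (log2) and the prion protein gene Prnp at 0.16 ± 0.12. Fgfr1 measured 53.4 in AAV-Control A against 13.7 and 14.5 in B and C, and 32.3, 38.4 and 45.2 with Sox11. AAV-Control A thus stood above all other libraries, and without it the log2 value was 1.38 ± 0.23 (limma adjusted p = 0.0594, the lowest of the alternatives, which reached 0.952).

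The genes whose log2 values followed St8sia4 most closely over the 6 libraries were Kif22, Dlst, Prelid1, Decr1 and Rapgef6, at Pearson r of 0.998 or more. For Ncam1 they were Sorl1, Polk, Rpap1, Scube1 and Agpat4, at 0.996 or more. With 6 libraries and the missing direction, high values are common: 984 of 15449 genes exceeded 0.9 with St8sia4 and 507 with Ncam1. St8sia4 itself had r of 0.93 with St8sia6, 0.75 with St8sia2 and 0.46 with Ncam1, and -0.82 with St8sia5. These are descriptions over libraries that share the group difference.

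**Figure D5:**
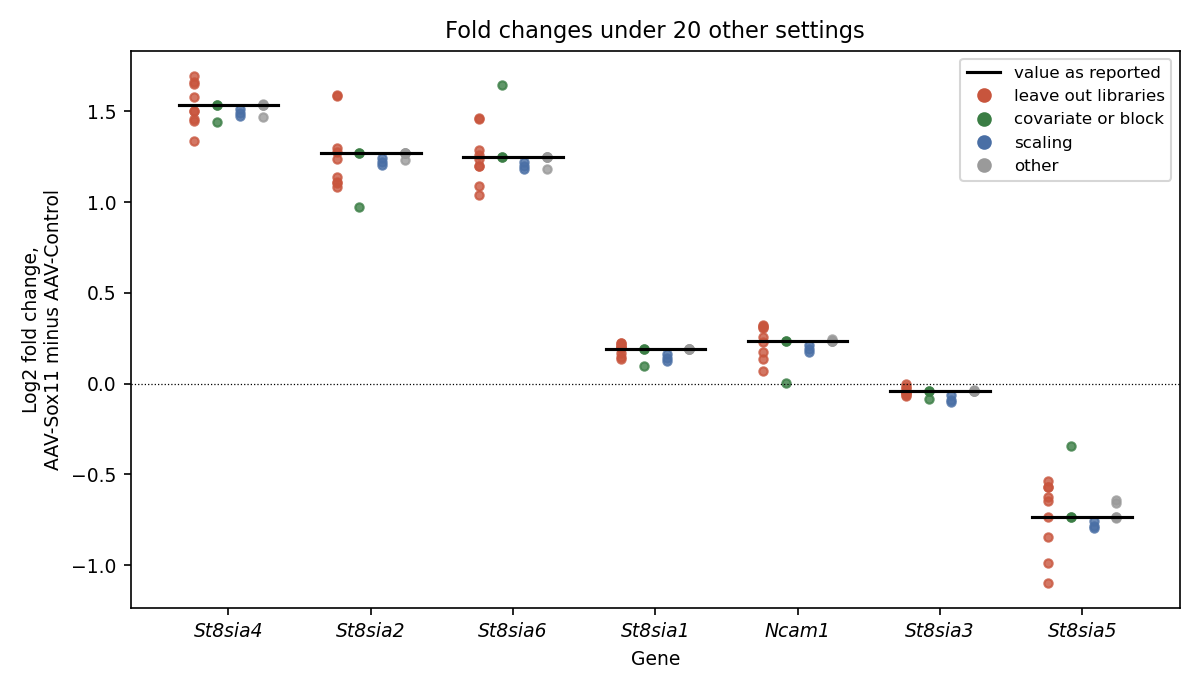
Log2 fold change, AAV-Sox11 minus AAV-Control, of each gene as reported (black bar) and under 20 other settings (points, coloured by the kind of setting). All points of St8sia4, St8sia2 and St8sia6 lie above 0.9, and those of Ncam1 between 0.0051 and 0.32.

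Over 20 alternative settings the log2 fold change was 1.34 to 1.70 for St8sia4, 0.98 to 1.59 for St8sia2 and 1.04 to 1.64 for St8sia6. It was 0.09 to 0.22 for St8sia1, 0.0051 to 0.32 for Ncam1 and -1.10 to -0.34 for St8sia5. None of the 140 values of the 7 genes changed sign. The lowest value of Ncam1 came from the fit with a sex index of each pool as a covariate (the log2 value of Xist minus the mean of 4 Y-linked genes). The index ran from 5.26 to 6.82 in the controls and 6.87 to 8.45 with Sox11, without overlap, and was lowest in AAV-Control C, where Ncam1 was lowest too. The same fit gave the highest value of St8sia6 (1.64), the lowest of St8sia2 (0.98) and St8sia1 (0.09), and the smallest decrease of St8sia5 (-0.34). St8sia4 was at 1.44 in it. The part of the index in these genes was not tested further.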

How the data were processed

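Polyadenylated RNA of sorted retinal cells was sequenced in 3 AAV-Control and 3 AAV-Sox11 libraries. Per the submitters' processing notes, the authors worked with the build mm10, CASAVA 1.8.2 and an unspecified version of edgeR. No aligner, counter or annotation was given in the sources used here. In their table, the authors deposited a normalized column per library (treated as signal), whole-number columns treated as a score, and their own log2 fold changes and p-values, of which only the fold changes are printed. Of 26691 rows, 357 carried no gene name and were left out; the others were summed to 15450 genes.

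Differences were fitted to log2(value + 1) with limma 3.58.1 (trend) in R 4.3.3, with Benjamini-Hochberg adjustment over all genes, after the code was tested on simulated data. A fold change on this scale understates that of low genes. The members and lists were chosen with earlier results of these data known. Named genes were all St8sia genes and Ncam1, Sox11, the pathway genes with adjusted p under 0.05 or else the largest change and the highest mean per list, and the 5 genes most correlated with St8sia4 and with Ncam1. St6gal2, B4galnt1, Cntn2, Neu1, Cadm1, Glg1, Slc17a6, Pou4f2, Stmn2, Nefl, Nefm, Rbpms, Thy1, Gad2, Slc6a9, Pax6, Tfap2a, Prkca, Otx2, Dkk3 and Rgs5 were added after their values were seen. Replicate letters pair the libraries, because the series description says that both treatments of a replicate were done on the same day. Deviations from the group means correlated at 0.0025, 0.79 and 0.24 between same-letter libraries (A, B and C). Between different letters they ran from -0.876 (AAV-Control C with AAV-Sox11 B) to 0.198 (AAV-Control C with AAV-Sox11 A). Since the missing direction also ties AAV-Sox11 B to the other libraries, these correlations do not show whether the pairing holds. Renbp, Neu2, Neu4, St3gal5, St6gal1, Ccr7, Cd36 and Gfra1 were not analysed here.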

Additional observations from a re-analysis of the deposited data

How the results depend on the processing

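The limma counts over all genes (123 higher, 235 lower, 3762 at an unadjusted p under 0.05) and the 3 pathway calls depended on the settings. With the replicate block, which uses the pairing by day, 323 genes were called higher, 414 lower and 7 in the pathway lists. Genes called lower numbered 355 under upper-quartile scaling, 356 under scaling by column total and 390 with transcript rows fitted in place of genes. With the missing direction as a covariate 0 were called higher, 0 lower and 0 in the pathway (2582 at an unadjusted p under 0.05), and adjusting for the sex index left 0, 0 and 0 (2702) and an Ncam1 log2 fold change of 0.0051. Leaving out libraries or same-day pairs gave 0 to 339 higher, 0 to 406 lower and 0 to 7 pathway calls. Man2a2, which did not pass, ran from -0.17 to 0.14 when libraries were left out, changing sign to 0.14 without AAV-Control A, 0.04 without AAV-Sox11 C and 0.09 without replicate A, and Prnp to -0.12 with the index. Nrp2 and St6galnac5 each lost their call in 8 of 20 alternatives and St6galnac2 in 12, all with the same sign. The causes were not tested.

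With 3 pools per group, unknown read depth and part of the spread missing, a gene that did not pass is not shown to be equal between groups.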
